A study of Mus musculus with 26 samples.

Results

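The EpCAM contrast of E-A14 mammary tumours, the change in RNA from EpCAM-positive to EpCAM-negative tumour cells, was compared between mice with and mice without CD4 and CD8 T cells. The comparison used 24 tumour libraries of the 26 libraries in the series, chosen by their labels as the 6 libraries of each fraction in each treatment; the other 2 came from cultured E-A14 cells. E-A14 is a Her2-expressing mouse mammary tumour line, implanted here in a mammary fat pad of FVB/N mice aged 6 to 8 weeks. All mice received antibody 2 times a week from 2 weeks before implantation. Depleted mice were given 100 µg each of anti-CD4 and anti-CD8a and their tumours were taken at day 20. Control mice were given 100 µg each of rat IgG2a and rat IgG2b and their tumours were taken at day 47. Treatment and day of harvest therefore cannot be told apart in any difference described here. In every group, live Her2-positive cells negative for CD90, CD105 and CD45 were sorted as EpCAM(+) or EpCAM(-). All tumours derive from 1 cell line. The labels do not say which libraries came from the same tumour, nor whether libraries of a group came from separate mice, so p-values measure the spread between these libraries.

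EpCAM is a surface adhesion molecule of epithelial cells, and its loss is one sign of the epithelial to mesenchymal transition (EMT), in which junctions and keratins give way to matrix and migration genes. The transition is driven by transcription factors of the ZEB and SNAI families, which repress epithelial genes through E-box motifs, and cells can stop in intermediate states. CD8 T cells kill cells that show peptides on MHC class I, and CD4 T cells direct other immune cells and release cytokines such as interferon gamma, which raise MHC class I.

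For each gene the contrast in each treatment is a log2 fold change of EpCAM(-) against EpCAM(+), with its standard error. The contrast difference is the control value minus the depleted value, so a negative difference means that the step from EpCAM(+) to EpCAM(-) was lower in control tumours. Levels are CPM, counts scaled to library totals, given as the lowest to the highest of 6 libraries with the median. Totals ran from 26895429 to 38740143 counts in the control libraries and from 17559520 to 25601999 in the depleted ones, with no overlap. With all libraries thinned to the smallest total 2800 genes were called, of which 2649 were among the 2910 called at full depth.

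The sort was visible in the counts, and its depth differed between treatments. *Epcam* (ENSMUSG00000045394) stood at 813 to 1407 CPM (median 1221) in control EpCAM(+) cells and 1.05 to 2.35 CPM (median 1.55) in control EpCAM(-) cells. The depleted fractions stood at 2036 to 2685 CPM (median 2459.8) in EpCAM(+) and 39.6 to 285 CPM (median 134) in EpCAM(-) cells. The fractions did not overlap in either treatment. As a share of the EpCAM(+) mean of the same treatment, 0.0892% to 0.200% of the *Epcam* level was left in the control EpCAM(-) libraries and 1.63% to 11.7% in the depleted ones. Depleted EpCAM(-) library 1 held the most and library 2 the least. In bulk samples fewer cells of a type and less RNA per cell cannot be told apart, here or in any level below.

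Of 14485 genes tested, 2910 had a contrast that differed between treatments at an adjusted p under 0.05, which is 20.1% of those tested. The difference was positive for 1404 (9.69%) and negative for 1506 (10.4%), and its median over all tested genes was -0.04. A difference of at least 1 on the log2 scale was reached by 1239 genes (8.55%). The contrasts themselves were called for 30.1% of genes in control and 32.2% in depleted tumours. Across the tested genes, which are not independent, Pearson's r between the contrasts was 0.46. By these calls the 2910 genes fell into 6 classes. In 374 the fractions moved in opposite directions, 882 had a called contrast in control tumours alone and 1078 in depleted tumours alone. In 195 both contrasts went the same way with the larger one in control, in 252 with the larger one in depleted, and in 129 neither contrast was called. A contrast called in 1 treatment alone does not show that it was absent in the other; the call of the difference itself is what all these genes share.

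**Figure D1:**
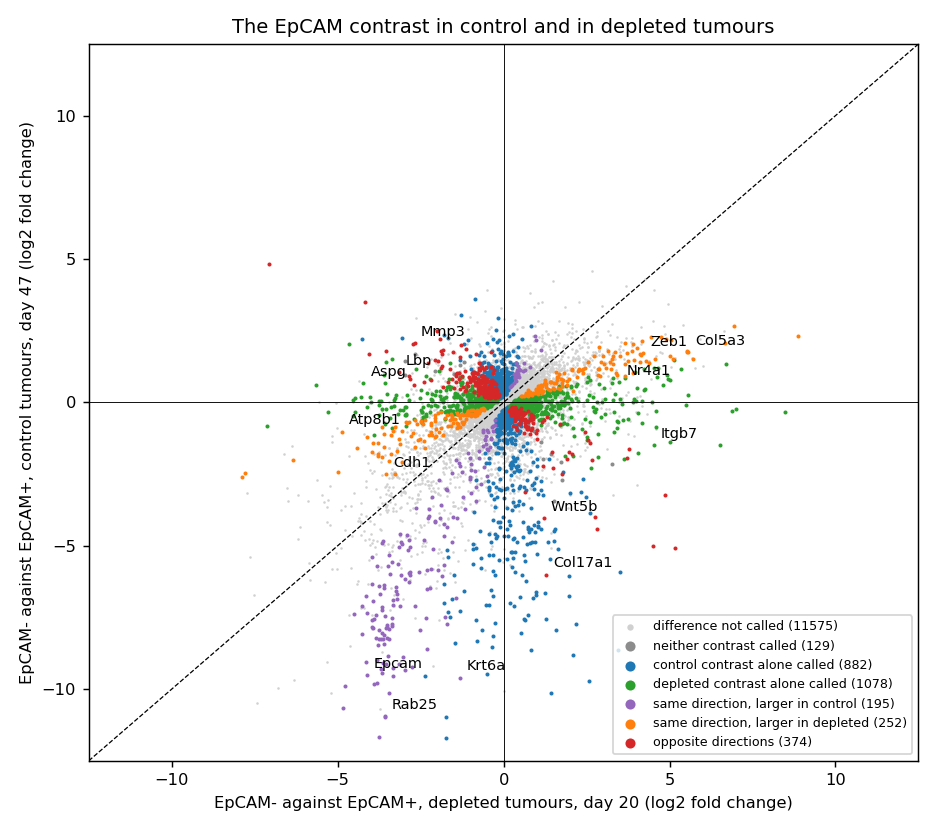
Each point is 1 of 14485 tested genes, with its log2 fold change of EpCAM(-) against EpCAM(+) in depleted tumours on the horizontal axis and in control tumours on the vertical axis; colours give the class of the contrast difference and the dashed line marks equal contrasts. Epithelial genes such as Epcam and Rab25 lie low and to the left, further down than across, while Col17a1 and Wnt5b lie where the fractions moved in opposite directions.

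Loss of epithelial junction genes in EpCAM(-) cells was deeper in control than in depleted tumours. Of 35 tested junction and surface genes, 23 had a lower contrast in control tumours and 1 a higher one, against 10.4% and 9.69% of all tested genes, and the median difference was -3.18. The median contrast was -6.00 in control and -3.14 in depleted tumours. Most fell in both treatments, 33 of the 35 in control tumours (15.9% of all tested genes fell) and 29 in depleted tumours (16.7% of all tested genes fell). These counts, and those of promoters below, include *Epcam*, the gene of the protein on which the fractions were sorted. The mean log2 CPM of the list was 5.22 to 6.11 in control EpCAM(+), 0.43 to 0.86 in control EpCAM(-), 6.02 to 6.21 in depleted EpCAM(+) and 2.57 to 4.19 in depleted EpCAM(-) libraries. By this mean the EpCAM(+) ranges overlapped between treatments and the EpCAM(-) ranges did not. By summed level, which the most abundant members dominate, the EpCAM(+) ranges were apart as well, at 5999 to 8877 CPM in control and 16045 to 17424 CPM in depleted tumours, against 1308 to 1848 CPM and 4606 to 6716 CPM in the EpCAM(-) fractions. Without depleted EpCAM(-) library 1, whose residual *Epcam* was highest, and control EpCAM(+) library 1, the counts were 22 lower and 2 higher.

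The promoters of 3 of these genes are shown because CAGGTG, the E-box bound by ZEB and SNAI factors, and its reverse CACCTG lie in them. They are the 250 bases before the start of *Epcam* (chr17:87635729-87635978 on the plus strand), of *Rab25*, a small GTPase of apical recycling (chr3:88548280-88548529 on the minus strand), and of *Lsr*, a protein of tricellular junctions (chr7:30973470-30973719 on the minus strand), from RefSeq on GRCm38.p6. Each is written 5′ to 3′ on the gene's strand, with the E-box in capitals on either strand.
Epcam: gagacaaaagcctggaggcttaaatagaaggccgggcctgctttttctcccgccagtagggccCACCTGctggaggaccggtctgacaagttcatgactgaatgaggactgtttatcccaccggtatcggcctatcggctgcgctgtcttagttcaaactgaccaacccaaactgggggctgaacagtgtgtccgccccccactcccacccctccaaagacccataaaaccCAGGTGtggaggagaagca
Rab25: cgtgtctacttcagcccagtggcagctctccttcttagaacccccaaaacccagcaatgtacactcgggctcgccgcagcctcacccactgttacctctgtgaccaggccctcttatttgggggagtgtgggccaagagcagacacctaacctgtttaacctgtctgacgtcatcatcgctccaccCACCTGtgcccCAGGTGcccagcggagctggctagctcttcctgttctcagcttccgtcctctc
Lsr: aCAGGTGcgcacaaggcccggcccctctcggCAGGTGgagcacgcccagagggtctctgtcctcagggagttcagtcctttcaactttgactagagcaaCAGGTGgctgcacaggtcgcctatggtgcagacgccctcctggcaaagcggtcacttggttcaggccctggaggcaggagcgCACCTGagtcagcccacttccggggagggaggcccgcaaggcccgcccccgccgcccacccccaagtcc

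*Epcam* held 2 matches, *Rab25* 2 and *Lsr* 4. Among the 23 junction genes with a lower contrast in control, 17 had a promoter in the table. Of these 13 held the motif in 250 bases (76.5%). It was in 19.4% of the 27025 genes with a promoter and in 18.5% of all tested genes with one. The share was 78.3% (18 of 23) over the junction genes that were tested, called or not, close to that of the called members. Each motif was searched on its own, so matches of different motifs may overlap. A match is a string of letters, and binding was not measured.

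*Epcam* itself changed by -9.51 ± 0.41 in control and -4.13 ± 0.31 in depleted tumours, a difference of -5.39 ± 0.44, adjusted p = 7.56e-09. Its direction in each treatment was set by the sort, and the part of the sort in its size was not tested. *Rab25* stood at 31.9 to 60 CPM (median 52) in control EpCAM(+) and 0 to 0.0807 CPM (median 0) in control EpCAM(-) cells, which held 4 counts in all. In depleted tumours it stood at 71.4 to 104 CPM (median 90.2) and 3.24 to 15.4 CPM (median 6.48), so that every depleted EpCAM(-) library kept more than every control one, and the difference was -7.35 ± 0.63, adjusted p = 1.48e-08. By pooled counts *Rab25* was 2369.5-fold lower (95% counting interval 925 to 8698) in control EpCAM(-) cells. *Pard6b*, a polarity protein of the PAR complex, had no count in any control EpCAM(-) library and was at least 606-fold lower there, taking 3 counts over the group as the floor. In depleted EpCAM(-) cells *Pard6b* ran at 1.17 to 5.98 CPM (median 2.43). *Lsr* and *Spint1*, an inhibitor of surface serine proteases, differed by -5.95 and -5.91 (adjusted p = 8.51e-08 and 4.11e-07), each with 11 counts in control EpCAM(-) cells.

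What was left of each junction gene in EpCAM(-) cells can be read as a percent of the EpCAM(+) mean of the same treatment. Over the 34 junction genes other than *Epcam*, the median was 1.70% in control and 12.1% in depleted tumours. In control tumours 12 of the 34 were below 1%, and in depleted tumours 0 were. All 34 kept a larger share than *Epcam* in depleted tumours (mean 5.73% for *Epcam*), and for 17 the share was above the 11.7% of *Epcam* in its highest library. In control tumours 27 of the 34 kept a larger share than *Epcam* (mean 0.136% for *Epcam*). The residual *Epcam* share moved with the residual share of these genes, and its part in the contrast difference was not tested.

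**Figure D2:**
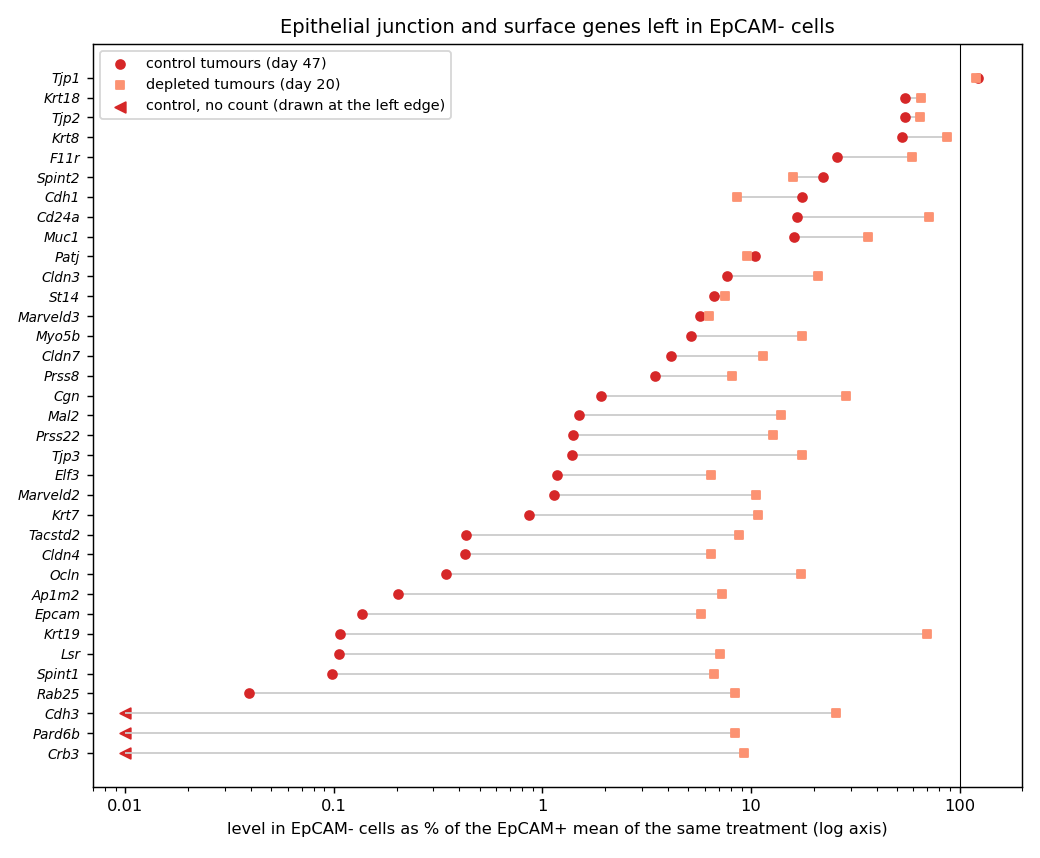
Level of 35 junction and surface genes in EpCAM(-) cells as a percent of the EpCAM(+) mean of the same treatment, on a log axis, for control (circles) and depleted tumours (squares); triangles at the left edge are genes with no count. Most circles lie to the left of their squares, down to 0 for Pard6b, while Cdh1 has its circle to the right.

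*Cdh1*, which encodes E-cadherin, the central protein of adherens junctions, was the 1 junction gene with a higher contrast in control tumours. It stood at 765 to 845 CPM (median 784) and 81.1 to 182 CPM (median 134) in control EpCAM(+) and EpCAM(-) cells, and at 798 to 1270.3 CPM (median 1011) and 45.9 to 139 CPM (median 88.4) in depleted ones. It fell in both treatments without overlap between fractions, by 2.51 (control) and 3.55 (depleted) on the log2 scale, and the contrast difference was 1.04 ± 0.27, adjusted p = 0.00707. Between 10.2% and 22.9% of the *Cdh1* level was left in control EpCAM(-) libraries, against 4.38% to 13.3% in depleted ones. Control and depleted EpCAM(-) libraries thus overlapped in *Cdh1* and lay far apart in *Epcam*.

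Epithelial regulators split. Of 19 tested epithelial transcription factors and splicing regulators, 8 had a lower and 2 a higher contrast in control tumours. Of all tested genes 10.4% were lower and 9.69% higher. The median difference of the list was -0.58. The medians of the contrasts themselves were in the other order, -2.07 in control and -3.07 in depleted tumours, and the median share of the EpCAM(+) level left in EpCAM(-) cells was 23.8% in control and 12.0% in depleted tumours. *Esrp1*, a splicing regulator of epithelial isoforms, stood at 0 to 0.752 CPM (median 0.229) in control EpCAM(-) and 2.29 to 22.7 CPM (median 8.11) in depleted EpCAM(-) cells, with EpCAM(+) medians of 72.4 and 128 CPM, and differed by -4.47 ± 0.64, adjusted p = 1.88e-05. *Tfap2c*, a factor of mammary epithelium, went the other way and had a higher contrast in control (2.47, adjusted p = 0.00141), with 21 to 185 CPM (median 85.4) in control and 3.89 to 19.6 CPM (median 10.3) in depleted EpCAM(-) cells. *Trp63*, the p63 factor of basal epithelium, changed by -0.78 ± 0.17 in control and 0.37 ± 0.17 in depleted tumours (difference adjusted p = 0.00133), with overlapping fractions in both. With only genes of at least 10 CPM in a group, the 8 lower members became 5.

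Keratins and desmosome genes followed the junction genes. Of 23 tested, 15 had a lower and 1 a higher contrast in control, against 10.4% and 9.69% of all tested genes. The median difference was -2.40. *Krt14*, the keratin of basal mammary cells, stood at 2605 to 3292 CPM (median 2867) and 82.4 to 199 CPM (median 151) in control EpCAM(+) and EpCAM(-) cells. The depleted fractions stood at 1394 to 1779 CPM (median 1454) and 371 to 613 CPM (median 461). Control EpCAM(+) cells thus had more *Krt14* than depleted EpCAM(+) cells and control EpCAM(-) cells less than depleted EpCAM(-) cells, with no overlap in either fraction. The difference was -2.64 ± 0.22, adjusted p = 1.21e-08. *Krt17*, a stress keratin of basal epithelium, *Dsg3*, a desmosomal cadherin, and *Krt6a*, a keratin of activated epithelium, differed by -5.21, -5.93 and -8.28 (adjusted p = 1.71e-07, 1.43e-05 and 1.33e-09). Mean levels of *Krt6a* and *Krt17* were 3.78 and 3.68 CPM in depleted EpCAM(+) cells, against 124 and 33.4 CPM in control EpCAM(+) cells. Their differences thus go with the EpCAM(+) levels too. *Krt6a* reads may be shared with its close relative *Krt6b*. In depleted tumours the desmosome and keratin list kept a median of 30.9% of its EpCAM(+) level in EpCAM(-) cells, against 4.97% in control tumours. By the mean of the libraries 9 of 23 genes kept over 50% in depleted tumours. These include *Krt19*, at very low counts, whose share ran from 0% to 318% with a median of 9.83%. Of the 9, *Krt8*, *Krt18*, *Pkp1*, *Jup*, *Ppl* and *Perp* also kept over 50% in control tumours, at 53.1% to 93.0% by the mean. Among basal and myoepithelial genes 8 of 18 had a lower and 1 a higher contrast in control, against the same shares of all tested genes.

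Some of the largest differences came from genes whose level in control EpCAM(+) cells was far above that in the other 3 groups. *Col17a1* (ENSMUSG00000025064), the hemidesmosomal collagen of basal cells, stood at 204 to 321 CPM (median 260.1) in control EpCAM(+), 2.15 to 6.62 CPM (median 3.44) in control EpCAM(-), 1.75 to 8.08 CPM (median 4.33) in depleted EpCAM(+) and 6.77 to 13.3 CPM (median 10.4) in depleted EpCAM(-) cells. It fell in control by 6.01 and rose in depleted tumours by 1.27, although the depleted fractions overlapped, and the difference was -7.28 ± 0.40, adjusted p = 1.46e-11. *Wnt5b*, a secreted Wnt ligand, stood at 41 to 113 CPM (median 79.7) and 2.15 to 7.16 CPM (median 4.64) in the control fractions, against 0.772 to 1.59 CPM (median 0.983) and 1.96 to 3.07 CPM (median 2.38) in the depleted ones. Its fractions were apart in both treatments, in opposite order, and it differed by -5.23 ± 0.38, adjusted p = 1.33e-09. *Pnpla1*, a lipid enzyme of the skin barrier, had no count in control EpCAM(-) cells and was at least 1032-fold lower there than in control EpCAM(+) cells. *Krt19*, a simple-epithelium keratin, ran at 1.56 to 26.4 CPM (median 8.91) in control EpCAM(+) cells, with 2 counts in all of control EpCAM(-) and under 1 CPM in every depleted library. *Galnt6*, which starts O-glycan chains, and *Ggt6*, a gamma-glutamyltransferase, differed by -8.20 and -7.89 (adjusted p = 6.17e-06 and 1.53e-05). *Serpinb2*, an inhibitor of plasminogen activators, showed another form. It had no count in control EpCAM(-) cells and 0 to 2.17 CPM (median 1.33) in control EpCAM(+) cells, which overlapped at 0, but 15.3 to 64.6 CPM (median 29.9) and 14.4 to 33.1 CPM (median 19.5) in the depleted fractions, which overlapped too (difference adjusted p = 0.00125).

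EMT transcription factors differed towards lower contrasts in control tumours, for 5 of the 12 tested, against 10.4% of all tested genes. By edgeR 0 were higher, also at an unadjusted p under 0.05 and by DESeq2. The median difference of the list was -0.40. The medians of the contrasts themselves were in the other order, 0.90 in control and 0.65 in depleted tumours. The 5 were *Zeb1*, *Zeb2*, *Snai2*, *Snai3* and *Sox4*, and their levels did not share a pattern. *Zeb1*, a repressor of epithelial genes, stood at 15.9 to 32.7 CPM (median 24.2) and 68 to 92.5 CPM (median 83.8) in control EpCAM(+) and EpCAM(-) cells, and at 1.44 to 7.40 CPM (median 4.71) and 64.7 to 97.5 CPM (median 85.3) in depleted ones. Its EpCAM(-) levels were alike in range between treatments, while every control EpCAM(+) library lay above every depleted EpCAM(+) library. It rose by 1.72 in control and 4.21 in depleted tumours, and the difference was -2.49 ± 0.30, adjusted p = 2.39e-06. *Snai2*, which encodes Slug, ran the other way within control tumours, with 13.8 to 24.4 CPM (median 18) in EpCAM(+) and 1.32 to 4.52 CPM (median 1.69) in EpCAM(-) cells. In depleted tumours *Snai2* stood at 2.60 to 6.13 CPM (median 3.52) and 2.17 to 5.92 CPM (median 4.02), and the difference was -3.08 ± 0.41, adjusted p = 8.57e-06. *Sox4*, a factor of progenitor cells, differed by -0.70 ± 0.18, adjusted p = 0.00691. *Zeb2* differed by -1.11 (adjusted p = 0.0345), and this call was lost when any 1 of 12 single libraries was left out, with a value of -0.81 without control EpCAM(+) library 3 (adjusted p = 0.0776). *Snai1*, encoding Snail, did not pass (0.08 ± 0.19, adjusted p = 0.82), nor did *Vim*, the mesenchymal intermediate filament (-0.15), *Fn1*, fibronectin (0.25), *Axl*, a receptor kinase (0.30), or *Grhl2*, an epithelial factor (0.72, with adjusted p from 0.212 to 0.544 over these 4).

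Matrix and mesenchymal genes differed in both directions. Of 27 tested mesenchymal genes 7 had a higher and 5 a lower contrast in control, and of 21 collagens 7 and 6. Of 28 matrix glycoproteins and proteoglycans 8 were higher and 3 lower. Of all tested genes 9.69% were higher and 10.4% lower. *Mmp3* (ENSMUSG00000043613), stromelysin, a protease of matrix and of E-cadherin, changed in opposite directions. It stood at 329 to 888 CPM (median 545) and 757 to 3871 CPM (median 2359) in control EpCAM(+) and EpCAM(-) cells, which overlapped through control EpCAM(-) library 1. In depleted tumours it stood at 964 to 1598 CPM (median 1286) and 162 to 226 CPM (median 191), with no overlap. The contrasts were 2.05 ± 0.26 and -2.72 ± 0.26, a difference of 4.77 ± 0.37, adjusted p = 3.33e-09. *Mmp14*, the membrane-bound collagenase, rose in control (1.14) and fell in depleted tumours by 0.29, where the fractions overlapped. It differed by 1.43 ± 0.11, adjusted p = 3.38e-09. *Adamts4*, an aggrecanase, and *Bmp1*, the procollagen C-proteinase, also changed in opposite directions, with differences of 2.16 and 1.57 (adjusted p = 9.5e-08 and 8.51e-08). The depleted fractions overlapped in *Adamts4* and were apart in *Bmp1*. *Timp3*, an inhibitor of matrix metalloproteases, rose in depleted tumours alone. It went from a range of 25.6 to 40.9 CPM (median 35.2) in EpCAM(+) to one of 112 to 177 CPM (median 141) in EpCAM(-) cells. In the control fractions it stood at 592 to 917 CPM (median 656) and 552 to 857 CPM (median 715). The difference was -2.03 ± 0.19, adjusted p = 8.51e-08. Over 27 tested metalloproteases and serpins 9 were higher and 6 lower in control, against the same shares of all tested genes.

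Among collagens, *Col18a1* and *Col4a5*, of basement membranes, rose in control and fell in depleted EpCAM(-) cells, with no overlap of the fractions in either treatment (differences 1.24 and 1.47, adjusted p = 2.59e-07 and 2.05e-06). *Col8a1*, a short-chain network collagen, ran from a range of 85.5 to 184 CPM (median 115) in EpCAM(+) to one of 10.2 to 22.5 CPM (median 14.3) in EpCAM(-) cells in depleted tumours and overlapped between the control fractions, at 589 to 1533 CPM (median 1199.5) and 514 to 1241 CPM (median 1050.4). Its difference was 2.78 ± 0.34, adjusted p = 2.77e-06. *Col11a1*, a fibrillar collagen of cartilage and tumour stroma, fell in both treatments, more in depleted tumours, where EpCAM(-) cells held 0 to 2.28 CPM (median 1.18), and differed by 2.83 (adjusted p = 0.000262). *Col5a3*, a minor fibrillar collagen, rose in both, from a range of 0.154 to 8.40 CPM (median 3.10) in EpCAM(+) to one of 130.5 to 197 CPM (median 168) in EpCAM(-) cells in depleted tumours and by 1.76 in control, and differed by -3.80 ± 0.75, adjusted p = 0.000687. *Postn*, periostin, a matricellular protein, fell in control tumours from a range of 1584 to 2846 CPM (median 2008) in EpCAM(+) to one of 403 to 939.9 CPM (median 558) in EpCAM(-) cells. In depleted tumours *Postn* stood at 11 to 27.1 CPM (median 13.4) and 12 to 21 CPM (median 14.9), far lower in both fractions, and the difference was -1.80 ± 0.30, adjusted p = 0.000106. *Mgp*, matrix Gla protein, rose in control alone (2.38 against 0.29, adjusted p of the difference = 0.000449), as did *Lamb1*, a laminin chain, and *Fbln2*, fibulin-2 (differences 1.01 and 0.90, adjusted p = 0.000317 and 0.000272). *Lum*, lumican, differed by 3.25 (adjusted p = 0.0115), with overlapping fractions in both treatments. *Spp1*, osteopontin, differed by 0.65 (adjusted p = 0.0355), and that call was lost without a filter on low counts (adjusted p = 0.0576) and when any 1 of 11 single libraries was left out, for example control EpCAM(+) library 6 (0.58, adjusted p = 0.0602). *Tgfbi*, a secreted target of TGF-beta, rose in depleted tumours alone, from a range of 10.7 to 22.8 CPM (median 15.4) in EpCAM(+) to one of 62.3 to 156 CPM (median 92.7) in EpCAM(-) cells, and differed by -3.02 ± 0.39, adjusted p = 4.69e-06. *Cd44*, the hyaluronan receptor, fell in both treatments, by 0.31 (control) and 0.84 (depleted) on the log2 scale (adjusted p of the difference = 0.000215). Summed fibroblast markers ran at 2175 to 4488 CPM and 2769.8 to 7179 CPM in the control fractions. They ran at 714 to 904 CPM and 826 to 930.0 CPM in the depleted ones. Several of these markers are matrix genes that tumour cells can also express. Among them 5 of 14 were higher and 2 lower, against 9.69% and 10.4% of all tested genes. Their part in the matrix results was not tested.

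**Figure D3:**
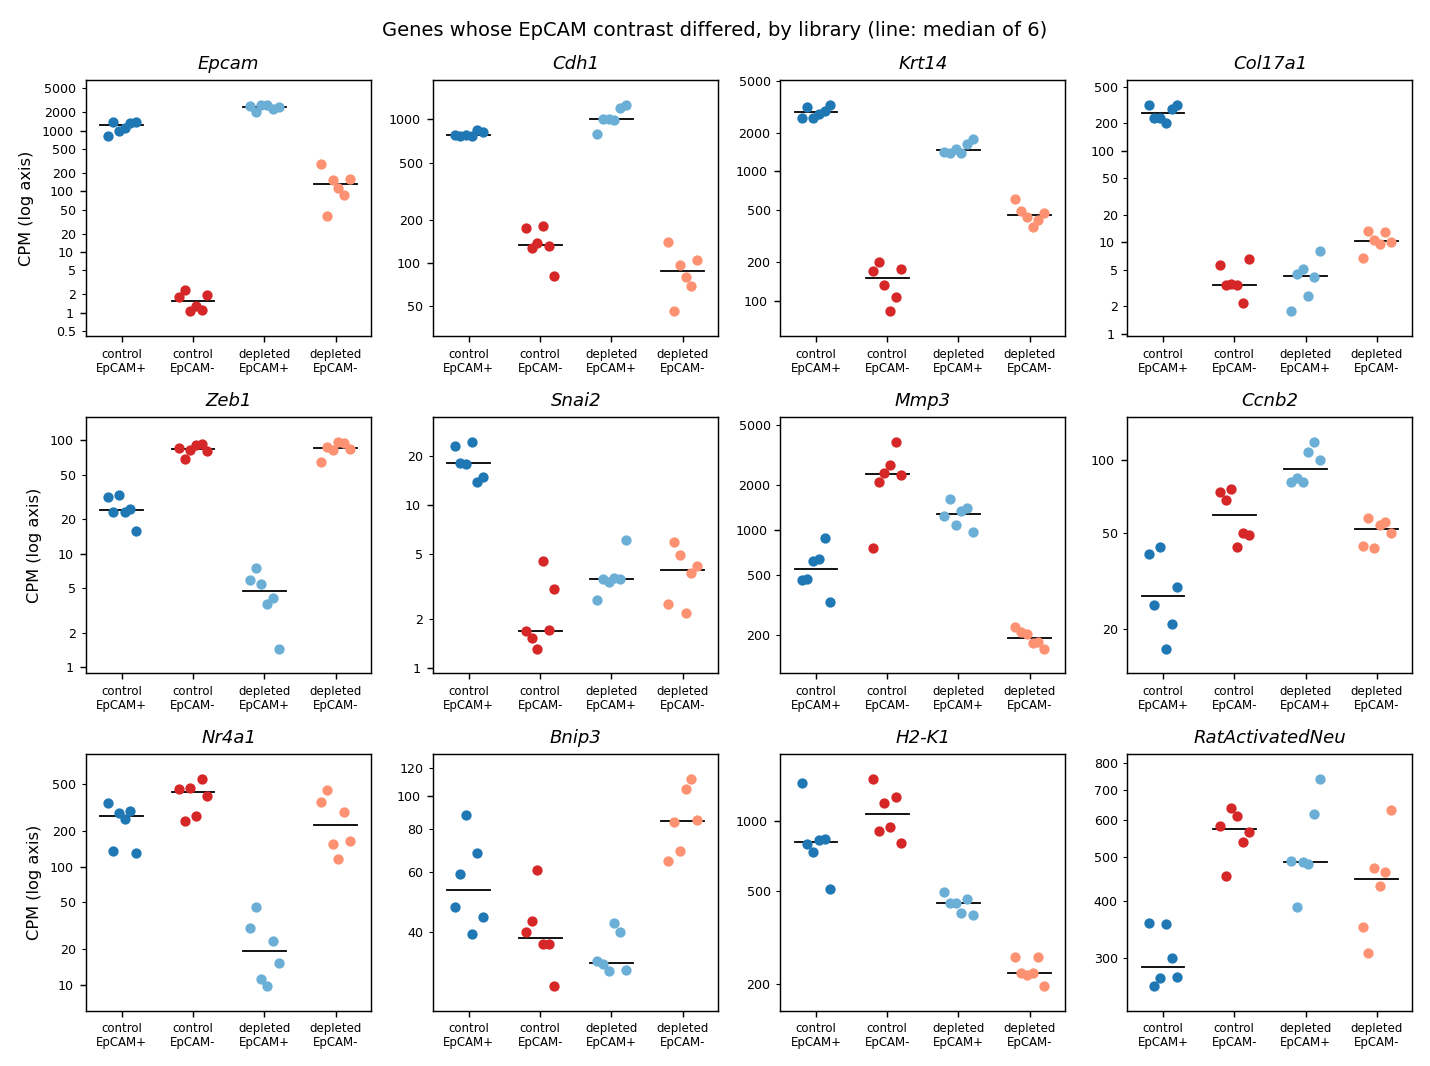
CPM on a log axis of 12 genes in each library of the 4 groups, with a line at the median of 6 libraries. Zeb1 is alike in range in the EpCAM(-) groups and higher in control than in depleted EpCAM(+) cells, Mmp3 and Ccnb2 are higher in control EpCAM(-) than in control EpCAM(+) cells by the median and lower in depleted EpCAM(-) than in depleted EpCAM(+) cells, and Nr4a1 is low in depleted EpCAM(+) cells alone.

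Of all lists examined, mitotic genes had the largest share of members with a higher contrast in control. Of 30 tested G2/M genes, 23 were higher and 0 lower, against 9.69% and 10.4% of all tested genes, and the median difference was 1.42. With an unadjusted p under 0.05 the edgeR test also placed 0 of the 30 lower, as did DESeq2 with an adjusted p under 0.05. The median contrast was 0.89 in control and -0.43 in depleted tumours, and 10 of the 23 moved in opposite directions with both contrasts called. The mean log2 CPM of the list was 3.59 to 5.12 in control EpCAM(+), 4.97 to 5.99 in control EpCAM(-), 5.50 to 5.83 in depleted EpCAM(+) and 4.98 to 5.37 in depleted EpCAM(-) libraries. The lowest levels by the median were thus in control EpCAM(+) cells, whose libraries spread most and overlapped with the control EpCAM(-) range, and the depleted fractions did not overlap.

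The promoters of 3 G2/M genes are printed for the CCAAT box, which is bound by NF-Y and is frequent in mitotic genes. They are the 250 bases before the start of *Ccnb2*, cyclin B2 (chr9:70421555-70421804 on the minus strand), *Cdc20*, an activator of the anaphase-promoting complex (chr4:118437344-118437593 on the minus strand), and *Hmmr*, a spindle protein (chr11:40733438-40733687 on the minus strand), from RefSeq on GRCm38.p6, written 5′ to 3′ with CCAAT, or ATTGG where the box is on the other strand, in capitals.
Ccnb2: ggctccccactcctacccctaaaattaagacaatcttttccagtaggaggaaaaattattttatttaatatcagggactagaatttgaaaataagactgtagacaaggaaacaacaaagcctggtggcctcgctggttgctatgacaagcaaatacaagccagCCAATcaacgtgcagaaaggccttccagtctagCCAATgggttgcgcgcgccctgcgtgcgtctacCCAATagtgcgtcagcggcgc
Cdc20: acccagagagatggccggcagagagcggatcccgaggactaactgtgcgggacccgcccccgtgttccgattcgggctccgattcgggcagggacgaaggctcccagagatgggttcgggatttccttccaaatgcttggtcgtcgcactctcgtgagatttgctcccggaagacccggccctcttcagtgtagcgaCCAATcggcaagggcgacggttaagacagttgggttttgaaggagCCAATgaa
Hmmr: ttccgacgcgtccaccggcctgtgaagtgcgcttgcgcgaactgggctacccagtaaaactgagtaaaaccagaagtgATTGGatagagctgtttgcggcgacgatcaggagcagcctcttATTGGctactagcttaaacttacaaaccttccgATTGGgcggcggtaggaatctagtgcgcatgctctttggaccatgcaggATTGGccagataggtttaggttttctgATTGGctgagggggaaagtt

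*Ccnb2* held 3 boxes, *Cdc20* 2 and *Hmmr* 5. Of the 23 called G2/M genes 20 had a promoter in the table, and 17 of these held CCAAT (85%). It was in 37.5% of all genes with a promoter and in 40.1% of all tested genes with one. Over the tested G2/M genes the share was 84.6%, close to that of the called ones. The element TTTGAA, known as the cell cycle genes homology region, was in 5 of the 20 (25%) and in 38.5% of the tested G2/M promoters. It was in 18.3% of all promoters and in 12.8% of those of all tested genes. CAGGTG was in 0 of the 20. These shares describe letters in the window and say nothing of binding.

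*Ccnb2* stood at 16.6 to 43.7 CPM (median 27.5) and 43.9 to 76.3 CPM (median 59.3) in control EpCAM(+) and EpCAM(-) cells. The depleted fractions stood at 81.6 to 119.6 CPM (median 92.2) and 43.6 to 57.8 CPM (median 52.1). The fractions were apart in both treatments, in opposite order, and the difference was 1.94 ± 0.27, adjusted p = 1.32e-05. *Cdc20* and *Kif20a*, a kinesin of cytokinesis, had the same order without overlap, with differences of 1.94 and 2.08 (adjusted p = 1.75e-05 and 2.71e-06). *Kif23*, a kinesin of the midbody, differed by 1.79 ± 0.27, adjusted p = 3.22e-05, with overlap in control tumours. *Mki67*, which encodes the proliferation marker Ki-67, stood at 17.5 to 56.5 CPM (median 37.9) and 45.1 to 103 CPM (median 56.3) in the control fractions and 54.8 to 96.1 CPM (median 65.3) and 30.8 to 58.6 CPM (median 47.5) in the depleted ones. It overlapped in both treatments and differed by 1.42 ± 0.34, adjusted p = 0.00377. *Ccnb1*, cyclin B1, differed by 1.12 ± 0.31, adjusted p = 0.0115. Genes of DNA replication and G1/S counted 8 of 30 higher and 0 lower, against 9.69% and 10.4% of all tested genes. The count of 0 lower was the same by edgeR at an unadjusted p under 0.05 and by DESeq2. *Mcm4* and *Mcm5*, subunits of the replicative helicase, differed by 0.75 and 1.03 (adjusted p = 0.00234 and 0.00636). *Rrm2*, of ribonucleotide reductase, and *Tyms*, thymidylate synthase, differed by 1.05 and 0.86 (adjusted p = 0.00976 and 0.00381).

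**Figure D4:**
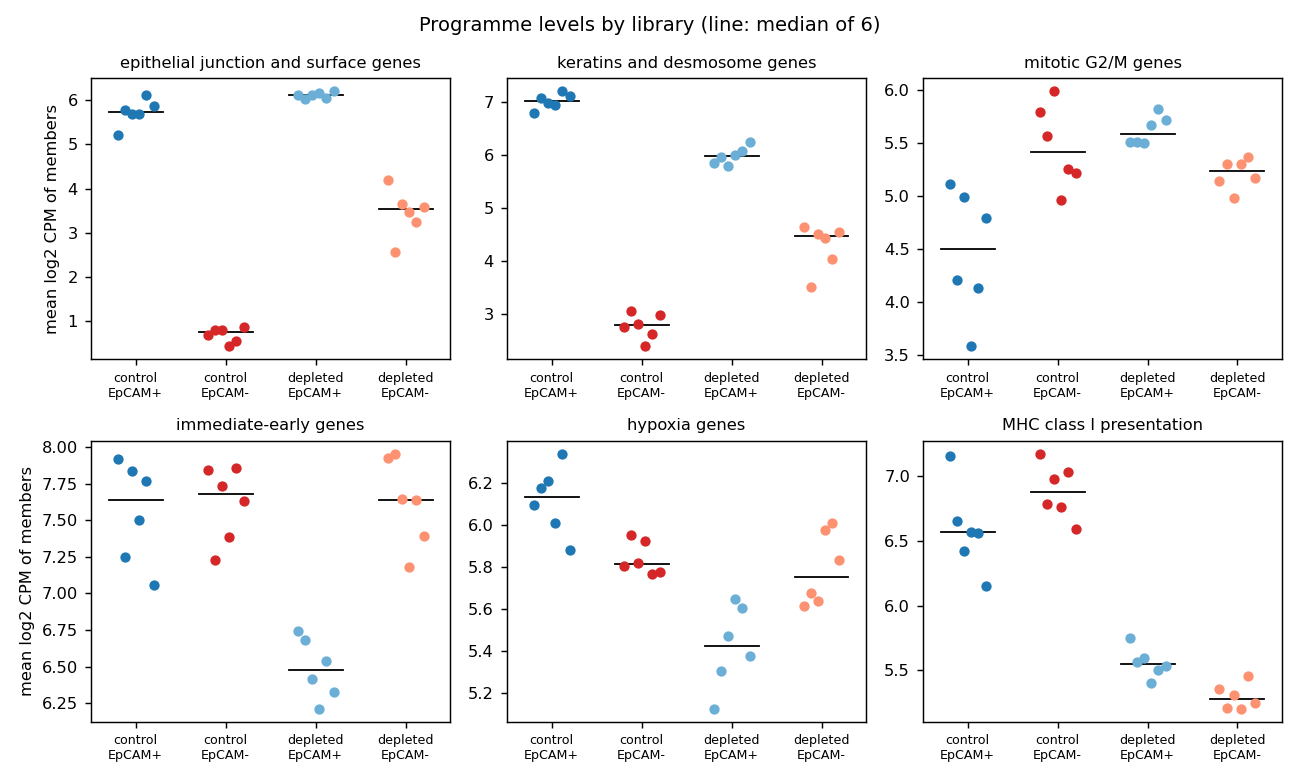
Mean log2 CPM of the tested members of 6 gene lists in each library of the 4 groups, with a line at the median. The epithelial lists are lowest in control EpCAM(-) cells, the G2/M list is lowest by the median in control EpCAM(+) cells, the immediate-early and hypoxia lists are lowest by the median in depleted EpCAM(+) cells, and MHC class I presentation is lowest by the median in depleted EpCAM(-) cells.

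Immediate-early genes, the first to be transcribed after a stimulus, had lower contrasts in control tumours. Of 29 tested, with a median difference of -1.07, 19 were lower and 0 higher, against 10.4% and 9.69% of all tested genes. An unadjusted p under 0.05 by edgeR, or an adjusted p under 0.05 by DESeq2, also placed 0 of them higher. In depleted tumours 22 of the 29 rose, against 15.5% of all tested genes, and the median contrast was 0.89. In control tumours 3 rose and 3 fell, against 14.2% and 15.9% of all tested genes, and the median was -0.09. By mean log2 CPM, depleted EpCAM(+) cells stood apart at 6.21 to 6.74, below all 18 other libraries, which ran at 7.06 to 7.92 in control EpCAM(+), 7.23 to 7.86 in control EpCAM(-) and 7.18 to 7.95 in depleted EpCAM(-) cells. *Nr4a1*, an orphan nuclear receptor, stood at 132 to 342 CPM (median 267) and 243 to 551 CPM (median 424) in the control fractions. In depleted tumours it stood at 9.88 to 45.7 CPM (median 19.5) and 116 to 447 CPM (median 227), and the difference was -2.77 ± 0.51, adjusted p = 0.000341. *Egr1*, a zinc finger factor, rose from a range of 839 to 1116 CPM (median 982) in EpCAM(+) to one of 1439 to 2335 CPM (median 1980.4) in EpCAM(-) cells in depleted tumours and overlapped in control tumours (difference -1.13 ± 0.20, adjusted p = 0.000231). *Ier5* and *Klf6*, regulators of stress and growth responses, differed by -1.61 and -1.32 (adjusted p = 3e-05 and 0.000584), and *Fos*, of the AP-1 factor, by -0.99 (adjusted p = 0.00138). NF-kB targets and inflammatory genes counted 9 of 24 lower and 0 higher, against the same 10.4% and 9.69% of all tested genes. The count of 0 higher was the same by edgeR at an unadjusted p under 0.05 and by DESeq2. The 9 included *Nfkb2*, *Relb* and *Bcl3*, which encode a subunit precursor, a subunit and a co-regulator of NF-kB (differences -0.57, -0.87 and -0.78, adjusted p = 0.000753, 0.00104 and 0.00425).

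Hypoxia and glycolysis genes had lower contrasts in control too. Of 20 tested hypoxia genes 9 had a lower contrast in control and 0 a higher one, and of 20 glycolysis genes likewise 9 and 0. The median differences were -0.73 and -0.41. Of all tested genes 10.4% were lower and 9.69% higher. At an unadjusted p under 0.05 edgeR placed 2 hypoxia and 0 glycolysis genes higher, and DESeq2 with adjustment 1 and 0. *Bnip3*, a mitophagy receptor induced by HIF, stood at 39.4 to 87.9 CPM (median 53.3) and 28 to 60.7 CPM (median 38.5) in the control fractions, which overlapped. In depleted tumours it rose from a range of 30.8 to 42.7 CPM (median 32.6) in EpCAM(+) to one of 64.7 to 112 CPM (median 84.4) in EpCAM(-) cells without overlap, and the difference was -1.80 ± 0.26, adjusted p = 2.51e-05. *Egln1*, a prolyl hydroxylase that marks HIF for degradation, *Pdk1*, which holds pyruvate back from mitochondria, and *Higd1a*, a mitochondrial protein, rose in depleted tumours alone. Their differences were -0.99, -0.92 and -1.01 (adjusted p = 1.76e-05, 0.000183 and 6.63e-05). *Slc2a1*, the glucose transporter GLUT1, fell by 0.62 in control and rose by 0.60 in depleted tumours, with 233 to 462 CPM (median 431) and 218 to 311 CPM (median 258) against 277 to 436 CPM (median 392) and 498 to 609 CPM (median 595) (difference -1.22 ± 0.19, adjusted p = 4.13e-05). *Hk2*, hexokinase, also changed in opposite directions (-1.42, adjusted p = 0.00195), with overlap in both treatments. *Eno2*, an enolase, and *Gpi1*, glucose-6-phosphate isomerase, rose in depleted tumours alone (differences -1.26 and -0.71, adjusted p = 0.0018 and 0.00274). *Slc2a3*, the transporter GLUT3, did not pass (2.34 ± 1.34, adjusted p = 0.241), and its value was -2.12 without depleted EpCAM(+) library 3.

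Stress genes differed in both directions. Of all tested genes 9.69% were higher and 10.4% lower in control. Of 23 tested genes of the unfolded protein and amino acid responses, 6 were higher and 10 lower in control. The higher ones were *Hspa5*, *Hsp90b1*, *Sdf2l1*, *Creld2* and *Dnajc3*, which encode chaperones of the endoplasmic reticulum or their partners, and *Slc7a5*, an amino acid transporter. The lower ones were *Atf4*, *Atf5*, *Ddit3*, *Trib3*, *Asns*, *Mthfd2*, *Slc7a11*, *Slc3a2*, *Ppp1r15a* and *Xbp1*, most of them members or targets of the ATF4 response. These names were not chosen by a rule and are given because they make up the whole count. *Hsp90b1*, *Sdf2l1* and *Creld2* rose in control and fell in depleted EpCAM(-) cells (differences 0.78, 0.82 and 0.60, adjusted p = 1.77e-06, 0.000177 and 0.0012). *Xbp1*, a factor of the unfolded protein response, fell in control alone (-0.57, difference -0.68 ± 0.11, adjusted p = 0.00012). The count of lower members was 5 without depleted EpCAM(-) library 1 or without a filter on low counts, and 6 without control EpCAM(+) library 1, control EpCAM(-) library 4 or 6, or depleted EpCAM(+) library 5 or 6. Among 17 redox genes 3 were higher and 5 lower. *Gsr*, glutathione reductase, and *Gclm*, of glutathione synthesis, fell in control alone, and *G6pdx*, which supplies NADPH, rose there (differences -0.77, -0.53 and 0.46, adjusted p = 0.0002, 0.00919 and 0.00372). *Prdx1*, a peroxiredoxin, fell in depleted tumours alone (difference 0.36, adjusted p = 0.0104). Cholesterol and fatty acid synthesis counted 6 of 24 higher and 1 lower, and 10 higher without depleted EpCAM(-) library 5.

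Genes of MHC class I presentation had higher contrasts in control tumours. Of 23 tested, with a median difference of 0.55, 10 were higher and 0 lower, against 9.69% and 10.4% of all tested genes. At an unadjusted p under 0.05 edgeR placed 0 lower, and DESeq2 placed 0 lower too. The mean log2 CPM was 6.15 to 7.15 and 6.59 to 7.17 in control EpCAM(+) and EpCAM(-) libraries, and 5.40 to 5.75 and 5.20 to 5.46 in depleted ones. By this mean all control libraries lay above all depleted ones, and the fractions overlapped in both treatments. By summed level the depleted fractions did not overlap, at 7048 to 7551 CPM in EpCAM(+) and 4823 to 5529 CPM in EpCAM(-) cells, and control EpCAM(+) libraries, at 7103 to 11506 CPM, overlapped with depleted EpCAM(+) ones. *H2-K1*, a class I heavy chain, stood at 514 to 1448 CPM (median 812) and 804 to 1513 CPM (median 1065) in the control fractions. In depleted tumours it fell from a range of 398 to 495 CPM (median 446) in EpCAM(+) to one of 197 to 263 CPM (median 224) in EpCAM(-) cells without overlap, and the difference was 1.29 ± 0.24, adjusted p = 0.000408. Reads of *H2* genes are shared within the family, and the FVB/N haplotype may differ from the reference, so single members are uncertain. *Tap1*, of the peptide transporter, fell in depleted tumours alone, from a range of 35.8 to 54.8 CPM (median 43.8) in EpCAM(+) to one of 13.1 to 22.7 CPM (median 21) in EpCAM(-) cells (difference 0.98 ± 0.22, adjusted p = 0.00185). *H2-T23*, a nonclassical chain, and the chaperones *Pdia3*, *Canx* and *Calr* also fell in depleted tumours alone (differences 0.96, 0.81, 0.57 and 0.55, adjusted p = 0.00022, 4.93e-07, 6.83e-05 and 0.000171). *B2m*, the light chain, instead rose in control (0.94 against 0.07, with overlapping fractions in both, difference 0.87 ± 0.26, adjusted p = 0.0194). Control EpCAM(+) library 1 had the highest *H2-K1* of its group and also summed MHC class II and dendritic markers of 446 CPM, against 37.3 to 96.2 CPM in the other 5. Without it and depleted EpCAM(-) library 1 the count was 15 of 23 higher, and with single libraries left out it ran from 9 to 15. Of 35 interferon-induced genes 5 were higher and 2 lower, or 20% in all, close to the 20.1% of all tested genes. The higher count was 3 under the filter of at least 10 CPM in a group and 7 by DESeq2.

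Markers of myeloid cells differed as well, although CD45-positive cells had been removed. Of all tested genes 10.4% had a lower contrast in control and 9.69% a higher one. Of 21 tested macrophage markers 10 had a lower contrast in control and 0 a higher one, and of 9 MHC class II and dendritic markers 4 and 0. At an unadjusted p under 0.05 edgeR placed 1 marker of each list higher, and DESeq2 placed 0. Summed macrophage markers ran at 129 to 308 CPM in control EpCAM(+), 65.6 to 81.1 CPM in control EpCAM(-), 192 to 312 CPM in depleted EpCAM(+) and 172 to 437 CPM in depleted EpCAM(-) libraries. Control EpCAM(-) cells had the lowest sums, below all other libraries. The 10 lower macrophage markers became 6, with 1 higher, and the 4 lower MHC class II markers became 1 without control EpCAM(+) library 1 and depleted EpCAM(-) library 1. T and NK cell markers summed to at most 7.07 CPM in any library. Summed pericyte and smooth muscle markers ran at 192 to 453 CPM and 15.7 to 161 CPM in the control and 106 to 203 CPM and 16.1 to 39.4 CPM in the depleted fractions, with 2 of 6 lower. Of 12 endothelial markers 2 were lower, of 5 neutrophil markers 1, of 2 T and NK markers 1, and of 7 muscle and erythroid markers 1. With so few members, these counts were not read as apart from the 10.4% of all tested genes that were lower. When single libraries were left out these counts ran from 1 to 3 for endothelial, 2 to 3 for pericyte, 0 to 1 for T and NK and 1 to 2 for muscle and erythroid markers. Neither the 3 adipocyte markers nor the 1 B cell marker passed by edgeR, with 1 adipocyte marker lower at an unadjusted p under 0.05. The part of these cells in the contrast differences was not tested.

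Immune ligands went both ways, with 4 of 22 higher and 4 lower, against 9.69% and 10.4% of all tested genes. The higher count was 2 without a filter on low counts, and each count ran from 3 to 6 over DESeq2 and the fits that left out a single library. *Arg1*, arginase, stood at 109 to 304 CPM (median 228) and 0.300 to 5.03 CPM (median 3.58) in the control fractions, and at 38.8 to 84.6 CPM (median 71.4) and 6 to 37.1 CPM (median 16) in the depleted ones. It fell in both, by 6.05 (control) and 1.84 (depleted), and differed by -4.21 ± 0.55, adjusted p = 6.17e-06. *Arg1* is also expressed by macrophages, whose summed markers were lowest in control EpCAM(-) cells and overlapped between the depleted fractions. The part of macrophages in the *Arg1* difference was not tested. *Lgals3*, galectin-3, fell in control and rose in depleted EpCAM(-) cells (difference -0.93 ± 0.17, adjusted p = 0.00025). *Vtcn1*, the inhibitory ligand B7-H4, fell in both and more in depleted tumours, to 0.821 to 7.94 CPM (median 4.59) against 18.8 to 77 CPM (median 32.7) in control EpCAM(-) cells (difference 2.43 ± 0.46, adjusted p = 0.000431). *Nectin2*, a ligand of TIGIT and DNAM-1, differed by 1.03 ± 0.19, adjusted p = 0.000262. *Csf1*, the macrophage growth factor, did not pass (0.14 ± 0.21, adjusted p = 0.687). Of 14 tested chemokines 1 was higher and 3 lower, against the same shares, with 5 lower without control EpCAM(-) library 3.

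The Neu oncogene, the rat counterpart of Her2, had a contrast that differed. It is listed in the table as RatActivatedNeu and stood at 261 to 357 CPM (median 287) in control EpCAM(+) and 454 to 638 CPM (median 574) in control EpCAM(-) cells, without overlap. The depleted fractions stood at 388 to 739 CPM (median 488) and 309 to 632 CPM (median 447), which overlapped. The contrasts were 0.90 ± 0.15 and -0.27 ± 0.15, and the difference was 1.17 ± 0.21, adjusted p = 0.000305. The mouse gene *Erbb2* fell in both treatments, by 1.15 (control) and 1.13 (depleted), and did not differ by the test (-0.02 ± 0.13, adjusted p = 0.941). Reads from the rat and mouse sequences may be exchanged between these features, and cells had been sorted on Her2 protein. *Erbb3*, the kinase-impaired partner of Her2, differed by -1.87 (adjusted p = 0.0379), but its call was lost with DESeq2 (adjusted p = 0.0698) and when any 1 of 12 single libraries was left out, for example depleted EpCAM(-) library 3 (-1.65, adjusted p = 0.0775). Of 11 ErbB receptors and ligands 1 was higher and 1 lower, the latter 0 to 2 when single libraries were left out, a share near that of all tested genes.

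Among TGF-beta and BMP genes 3 of 28 were higher and 8 lower, against 9.69% and 10.4% of all tested genes. *Bmp7*, a ligand of the family, stood at 1.23 to 4.28 CPM (median 2.35) and 0.0684 to 0.956 CPM (median 0.155) in the control fractions, and at 99.8 to 195 CPM (median 137) and 186 to 279.7 CPM (median 211) in the depleted ones. Depleted cells of either fraction thus had more *Bmp7* than any control library, and the difference was -3.76 ± 0.48, adjusted p = 4.22e-06. *Skil*, a repressor of SMAD signalling, changed in opposite directions (-1.13 ± 0.13, adjusted p = 1.51e-06). The higher members were 5 without control EpCAM(-) library 1. *Lrrc32*, which holds latent TGF-beta at the cell surface, fell in control and rose in depleted tumours (-5.38 ± 0.97, adjusted p = 0.000262), with overlap in depleted tumours. Of 24 Wnt and Notch genes 6 were higher and 3 lower, against the same shares of all tested genes. *Notch1* fell in depleted tumours alone (1.09 ± 0.17, adjusted p = 4.99e-05), and its ligand *Jag1* changed in opposite directions (-1.22 ± 0.21, adjusted p = 0.000194), with overlap in both treatments. *Hey1*, a Notch target, stood at 37.3 to 189 CPM (median 90.4) in control and 0 to 1.32 CPM (median 0.735) in depleted EpCAM(-) cells and differed by 2.91 ± 0.66, adjusted p = 0.0023.

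Several genes with the largest differences in their class belong to none of these groups. *Lbp*, a secreted binding protein of bacterial lipopolysaccharide, rose in control from a range of 728 to 1389 CPM (median 760.2) in EpCAM(+) to one of 1069 to 2611 CPM (median 1783) in EpCAM(-) cells with overlap, and fell in depleted tumours from a range of 17.9 to 42.7 CPM (median 29.6) in EpCAM(+) to one of 1.12 to 5.29 CPM (median 3.08) in EpCAM(-) cells, and differed by 4.22 ± 0.38, adjusted p = 3.48e-08. *Mylk*, myosin light chain kinase, also changed in opposite directions (2.00, adjusted p = 9.04e-07), as did *Pilrb1*, a paired immunoglobulin-like receptor whose reads may be shared with *Pilrb2* (4.71, adjusted p = 9.94e-08), and the unnamed transcript 9230104L09Rik (5.35, adjusted p = 0.000123). Of genes that rose in both treatments and more in control, *Adamts2*, a procollagen N-proteinase, went from a range of 79.6 to 154 CPM (median 123) in EpCAM(+) to one of 432 to 628 CPM (median 553) in EpCAM(-) cells in control tumours, and differed by 1.20 ± 0.20, adjusted p = 0.000114. *Shisa4* and *Golm1*, a Golgi membrane protein, differed by 1.01 and 0.81 (adjusted p = 0.000303 and 0.00106). *Ttc9* differed by 1.39 (adjusted p = 0.0255), and the call was lost without control EpCAM(-) library 5 (1.18, adjusted p = 0.057).

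Among genes that rose in depleted tumours more than in control, *Pi15*, a secreted peptidase inhibitor, went from a range of 0 to 1.86 CPM (median 0.524) in EpCAM(+) to one of 9.63 to 21.3 CPM (median 14.9) in EpCAM(-) cells in depleted tumours and from a range of 69.7 to 189.6 CPM (median 106) in EpCAM(+) to one of 245 to 454 CPM (median 377) in EpCAM(-) cells in control, and differed by -3.06 ± 0.53, adjusted p = 0.000191. *Tspan15*, a tetraspanin, and *Prkar2b*, a regulatory subunit of protein kinase A, differed by -3.77 and -3.72 (adjusted p = 0.00181 and 0.00594). *Itgb7*, an integrin chain better known from lymphocytes, reached 9 to 29.2 CPM (median 16.7) in depleted EpCAM(-) cells and stayed below 3 CPM in all other libraries (difference -6.02 ± 1.17, adjusted p = 0.000579). *Ldlrad3*, a receptor of the LDL family, stood at 0 to 0.463 CPM (median 0) and 2.54 to 5.05 CPM (median 3.90) in the depleted fractions and at 16.9 to 26.9 CPM (median 22.7) and 13.9 to 36.7 CPM (median 17.7) in the control ones, where it was higher in either fraction, and differed by -5.59 ± 0.61, adjusted p = 5.26e-07. *Akap12*, a scaffold of protein kinase A, differed by -4.33 ± 1.12, adjusted p = 0.00689, with 15 to 26.6 CPM (median 21.7) in depleted EpCAM(-) cells. *Cck*, the peptide cholecystokinin, differed by -5.46 (adjusted p = 0.0129), which became -2.53 (adjusted p = 0.221) without control EpCAM(+) library 1.

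Among genes that fell in depleted tumours, *Atp8b1*, a phospholipid flippase, ran from a range of 16.2 to 40.9 CPM (median 28.9) in EpCAM(+) to one of 0.0391 to 2.06 CPM (median 1.28) in EpCAM(-) cells, against 30.6 to 40.6 CPM (median 33.8) and 6.64 to 32 CPM (median 15.9) in control tumours, and differed by 3.86 ± 0.60, adjusted p = 4.84e-05. *Muc15*, a membrane mucin, fell in both treatments. It had no count in depleted EpCAM(-) cells and was at least 44.2-fold lower there than in depleted EpCAM(+) cells. *Ncmap*, a myelin protein, fell in depleted tumours from a range of 37.7 to 54.7 CPM (median 48.8) in EpCAM(+) to one of 0.648 to 9.58 CPM (median 3.39) in EpCAM(-) cells and overlapped between the control fractions, at 40.8 to 79.1 CPM (median 53.8) and 46.2 to 98.2 CPM (median 66.4) (difference 3.80 ± 0.44, adjusted p = 1.22e-06). *Ly6c2*, a surface antigen whose reads may be shared with *Ly6c1*, stood at 88 to 96.7 CPM (median 92.3) and 2.38 to 11.5 CPM (median 6.69) in the depleted fractions and below 1 CPM in every control library (difference 3.81 ± 0.46, adjusted p = 1.91e-06). *Sec14l5*, a lipid-binding protein, and *Aspg*, an asparaginase, differed by 4.56 and 4.91 (adjusted p = 3.14e-06 and 0.000152), the latter with 1 count in depleted EpCAM(-) cells. Of genes that rose in control alone, *Camk1g*, a calmodulin-dependent kinase, went from a range of 2.43 to 10.3 CPM (median 5.48) in EpCAM(+) to one of 15.5 to 67.4 CPM (median 51.5) in EpCAM(-) cells and stayed below 2 CPM in depleted libraries (difference 3.09 ± 0.58, adjusted p = 0.000388). *Col10a1*, the collagen of hypertrophic cartilage, and *Nwd1* differed by 4.14 and 3.90 (adjusted p = 0.0137 and 0.00257), *Col10a1* with 4 counts in depleted EpCAM(-) cells.

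Housekeeping lists stood below the background share. Of 28 cytoplasmic ribosomal proteins 0 were called in either direction by edgeR, also at an unadjusted p under 0.05 and by DESeq2, and of 22 respiratory chain genes 1 was higher. Among 19 luminal mammary genes 3 were higher and 5 lower, against 9.69% and 10.4% of all tested genes. The lower count was 3 without depleted EpCAM(-) library 1.

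**Figure D5:**
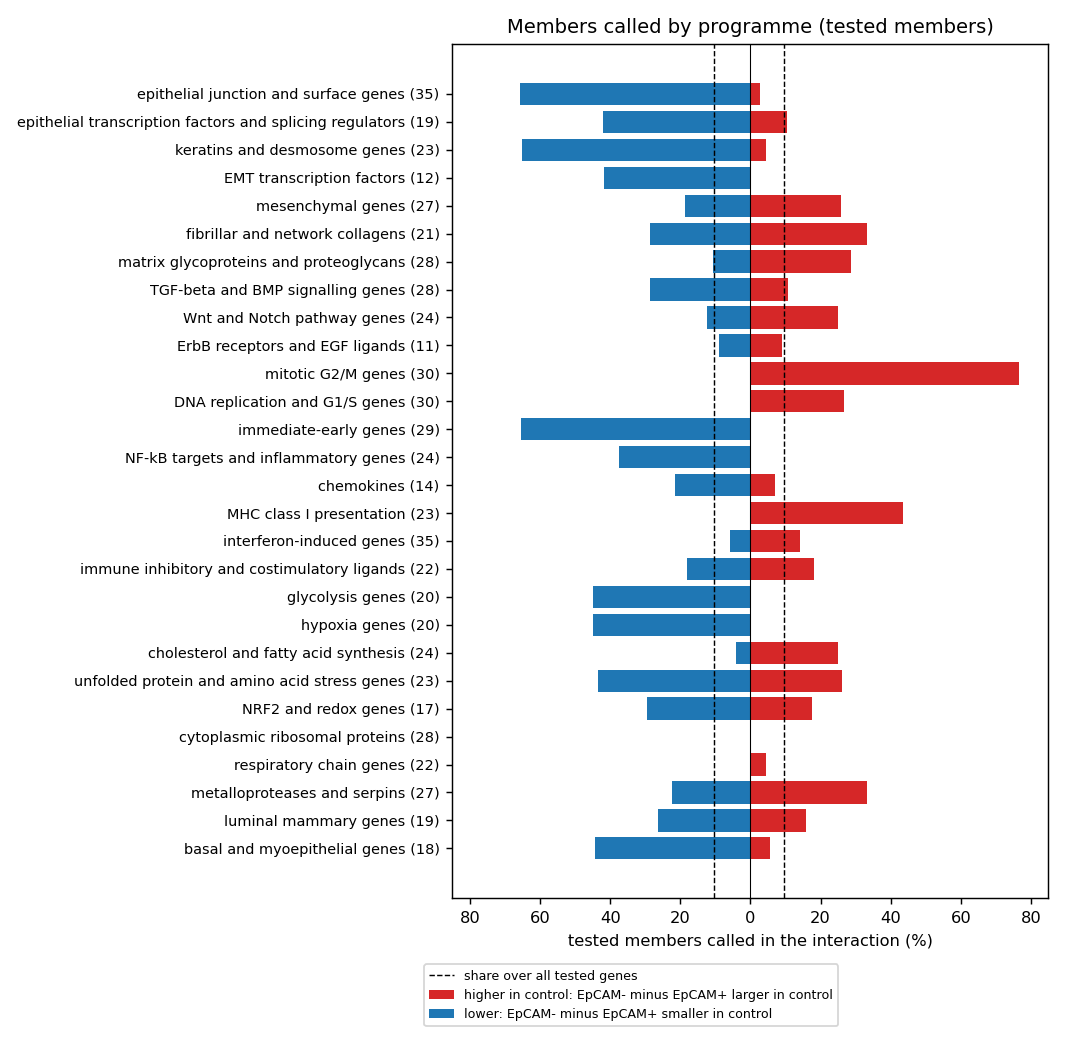
Share of tested members of 28 gene lists with a called contrast difference, higher in control to the right and lower to the left, with the number tested in brackets; dashed lines mark the shares over all tested genes (9.69% higher, 10.4% lower). G2/M genes reach furthest to the right and the junction, keratin and immediate-early lists to the left, while ribosomal proteins have no bar.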

How the data were processed

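RNA of sorted tumour cells was sequenced as single 50-base reads from SMARTer cDNA. Per the submitters' processing notes, the authors used STAR, of unstated version, the mm9 build and DESeq2 1.22.2. The deposited table holds whole-number read counts per gene, not normalized. The sources used here do not give the counting program, annotation or strand setting, so overlapping antisense genes and close paralogs are uncertain. A deposited normalized table was not used.

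Of 47730 features, 14485 passed filterByExpr on the 24 libraries. TMM scaling and edgeR 4.0.16 (limma 3.58.1, R 4.3.3) quasi-likelihood tests were run with 1 coefficient for each of the 4 groups, and p-values were adjusted by Benjamini-Hochberg over all tested genes, with a threshold of 0.05. CPM use TMM-scaled totals, and log2 CPM of lists a prior count of 2. The floor for a group without counts was 3 counts over the group, and intervals cover counting error only. The alternatives were RLE scaling, other filters, DESeq2 1.42.0, all 26 libraries, a replicate block, thinned counts and each library left out. The fit with 2 libraries left out together was chosen after seeing the data.

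Genes were named by rule: up to 4 of the largest differences per class and direction with at least 10 CPM in a group, up to 4 per list with the smallest p, and 25 fixed genes. Some genes that the rule names are not reported here. The members and lists were chosen with earlier results of these data known. Symbols were matched for 47224 of 47729 Ensembl features. On simulated data for the interaction (14116 genes), 62% of 100 genes changed 2-fold and 86% of 100 changed 4-fold were recovered, with 4 other genes called. Promoters came from a RefSeq table for GRCm38.p6, and motifs were searched in 250 bases on both strands.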

Additional observations from a re-analysis of the deposited data

Results flagged for a closer look

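A library was compared with the other 5 of its group in 200 sets of values, and 14 stood apart by the size of the gap to the nearest other library. Chance flags about 1 in 20 such sets. Library 1 of several groups stood out in markers of other cells. Summed MHC class II and dendritic markers were 446 CPM in control EpCAM(+) library 1 (37.3 to 96.2 in the others), 69.0 CPM in control EpCAM(-) library 1 (28.2 to 33.0) and 251 CPM in depleted EpCAM(-) library 1 (81.4 to 139). Summed adipocyte markers were 13.0 CPM in control EpCAM(+) library 1 (0.845 to 3.01) and 6.67 CPM in depleted EpCAM(-) library 1 (1.68 to 2.72). *H2-K1* was 1448 CPM in control EpCAM(+) library 1 (514 to 833). The mean log2 CPM of collagens was 6.06 in control EpCAM(-) library 1 (6.69 to 6.94).

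Other libraries stood apart once each. Summed pericyte and smooth muscle markers were 161 CPM in control EpCAM(-) library 5 (15.7 to 70.1), and neutrophil markers 5.26 CPM in control EpCAM(-) library 6 (2.70 to 3.17). Fibroblast markers summed to 826 CPM in depleted EpCAM(-) library 6 (892 to 930.0). *Snai2* was 6.13 CPM in depleted EpCAM(+) library 6 (2.60 to 3.58). By mean log2 CPM, respiratory chain genes were at 7.17 in control EpCAM(-) library 2 (6.98 to 7.05), glycolysis genes at 6.26 in control EpCAM(+) library 6 (6.59 to 6.78) and cholesterol and fatty acid synthesis at 5.81 in control EpCAM(+) library 4 (6.08 to 6.22).

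A contrast that differs between the treatments by the interaction test is the subject of the report, with 2910 genes, of which 374 moved in opposite directions. Among the named genes of that kind the negative differences were -7.28 for *Col17a1*, -5.38 for *Lrrc32*, -5.23 for *Wnt5b*, -3.76 for *Bmp7*, -1.80 for *Bnip3*, -1.42 for *Hk2*, -1.22 for *Jag1*, -1.22 for *Slc2a1*, -1.13 for *Skil* and -0.93 for *Lgals3*. The positive ones below 1.5 were 0.60 for *Creld2*, 0.75 for *Mcm4*, 0.78 for *Hsp90b1*, 0.82 for *Sdf2l1*, 1.24 for *Col18a1*, 1.43 for *Mmp14* and 1.47 for *Col4a5*. The larger ones were 1.57 for *Bmp1*, 1.79 for *Kif23*, 1.94 for *Cdc20*, 1.94 for *Ccnb2*, 2.00 for *Mylk*, 2.08 for *Kif20a*, 2.16 for *Adamts4*, 4.22 for *Lbp*, 4.71 for *Pilrb1*, 4.77 for *Mmp3* and 5.35 for *9230104L09Rik*.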

How the results depend on the processing

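No named gene with a called contrast difference reversed it under any alternative. Of those not called, *Erbb2* ran from -0.07 to 0.06 with single libraries left out, and *Slc2a3* turned from 2.34 to -2.12 without depleted EpCAM(+) library 3. With a size of at least 1 on the log2 scale added to the adjusted p, 1239 genes were called in place of 2910, 513 higher and 726 lower, since the rule is stricter. The number called was 2914 with RLE scaling, 2555 with no filter on low counts, 2611 with at least 10 CPM in a group, 2999 with all 26 libraries, 2800 with thinned counts and 3273 with DESeq2. With each library left out in turn it ran from 2639 to 2970, with 1277 to 1484 higher and 1316 to 1524 lower, and the contrasts called ran from 3879 to 4531 in control and from 4279 to 4717 in depleted tumours. The share of higher among called genes lay between 44.7% and 52.1% over all these fits, without the added rule on size. The labels number the libraries 1 to 6 in each fraction, and a fit with the replicate number as a block called 3405 genes, including 2743 of the 2910. The correlation of same-numbered libraries ran from 0.07 to 0.21 in control tumours, over 0.1 for 4 of 6 numbers. In depleted tumours it ran from 0.03 to 0.08. In control tumours 5 EpCAM(+) and 6 EpCAM(-) libraries correlated best with their own number, and in depleted tumours 4 and 4. Unrelated numbers would give about 1 of 6, so the numbers went with similarity between fractions in both treatments. The labels do not state pairs, and the main fit left any pairing out. With the block *Lum* (2.72, adjusted p = 0.0621) and *Erbb3* (adjusted p = 0.0654) were no longer called. Junction genes were lower for 22 to 24 members, G2/M genes higher for 22 to 28 and immediate-early genes lower for 15 to 24 under all alternatives. Without control EpCAM(+) library 1 and depleted EpCAM(-) library 1 together, 2768 genes were called, with 15 keratin and desmosome, 15 immediate-early, 9 hypoxia and 9 glycolysis genes lower and 27 G2/M genes higher. Counts at or near 0 limit the size of the largest differences, and depleted libraries were the shallower ones.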
